A study of Homo sapiens with 6 samples.

Results

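The breakdown of the branched-chain amino acids leucine, isoleucine and valine (BCAAs) runs in mitochondria. A pair of shared steps, transamination and an oxidative decarboxylation by the branched-chain ketoacid dehydrogenase complex, is followed by separate routes for the 3 carbon skeletons. The phosphatase PPM1K removes phosphate from that complex and so switches it on, while the kinase BCKDK switches it off. The 9 genes described here encode enzymes of the separate routes beyond the complex. IVD, MCCC1, MCCC2 and AUH act on the leucine skeleton. ACADSB acts on that of isoleucine, and ACAD8, HIBCH, HIBADH and ALDH6A1 on that of valine. They were taken by gene symbol from the deposited tables, where each symbol matched 1 row, so all 9 of 9 were found among 31369 genes, and all 9 were among the 15878 genes with enough counts to test.

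RNA was sequenced from HK-2, an established human proximal tubule cell line, in 3 samples of a control group (NC, genotype label WT) and 3 samples of a group overexpressing PPM1K (OE, genotype label PPM1K overexpress). OE cells were transfected with a PPM1K plasmid by lipofection. What the NC cells received and the promoter of the plasmid are not given in the sources used here, so the effects of PPM1K and of carrying a plasmid cannot be told apart. All 6 samples carry the labels Chronic kidney disease (as treatment) and day 10, and the titles name shControl and shPPM1K in place of overexpression. The cell line entries run from HK-2 to HK-12 in steps, while the cell type entry is HK-2 in all 6. The study speaks of biological replication, while the labels do not say whether the samples of a group were separate cultures, so the p-values measure only the spread between these samples.

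Counts summed to between 34635770 and 36116963 for an NC sample and between 36033404 and 39850802 for an OE sample. NC replicate 2 stood apart in the number of genes counted in that sample alone, 3551 against 449 to 766 in the others. In the read distribution given by the study it also had the largest shares of intronic, intergenic and antisense reads. The results of the 9 genes and the counts of the gene lists are also given without NC replicate 2 where that changes them. The overexpressed gene went with the genotype labels and not with the titles. PPM1K had 37, 19 and 53 counts in NC and 3294, 3531 and 2919 in OE (6.39 higher in OE on the log2 scale, adjusted p = 1.1e-18 from edgeR). Of 17 markers of proximal tubule and renal epithelium, 13 passed the filter on low counts. In counts scaled to library size (CPM), PAX8 (222 CPM in NC and 264 CPM in OE), CDH6 (176 and 49.7 CPM) and KRT8 (2157 and 1542.5 CPM) were high. CDH6 was strongly lower in OE (log2 fold change −1.82, adjusted p = 8.2e-17 from edgeR). LRP2, CUBN, AQP1 and HNF4A, which define the mature tubule, had group means of 0.131 CPM or less in both groups. The highest single sample was HNF4A in OE replicate 2, at 0.202 CPM. Of the 13 tested markers, 7 fell and 2 rose in OE (adjusted p under 0.05, edgeR). Over all tested genes 23.7% fell and 24.9% rose by this rule. In DESeq2 and without NC replicate 1 or 3 or OE replicate 2, 1 of the 13 rose. Their summed level was 4675 to 5088 CPM in NC and 3616 to 3964 CPM in OE. That sum mainly follows the most abundant genes of the list, such as KRT8, and says little of the others. The part of these markers in the results below was not tested. The 10 markers of endothelial, blood, podocyte and fibroblast cells summed to 5.54 to 6.56 CPM in NC and 7.31 to 8.11 CPM in OE, and PTPRC and DCN were at 0 in every OE sample but not throughout NC. Of the 3 that passed the filter, PECAM1 and VWF were higher in OE, and 0 were higher in DESeq2 and without NC replicate 1 or 2 or OE replicate 2. Their part in the results below was not tested either.

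Changes are given as log2 of the fold change of OE relative to NC. Of the 9 genes, 6 were lower in OE at an adjusted p under 0.05 in edgeR's quasi-likelihood test, with p-values adjusted by Benjamini-Hochberg over all 15878 tested genes. These were all 4 genes of the valine route, the isoleucine gene ACADSB and, of the leucine route, AUH. None was higher, at an unadjusted p under 0.05 either, and DESeq2 and limma also called 0 higher. Among all tested genes 23.7% were lower and 24.9% higher by the same rule, 48.6% in either direction. The median log2 fold change of the 9 genes was −0.26, against −0.0032 over all tested genes. Like medians were found in 2 lists described below, the propionyl-CoA steps (−0.25) and other mitochondrial aldehyde dehydrogenases (−0.27). The medians of all the lists ran from −0.35 (renal epithelial markers) to 0.41 (markers of other cell types). With the fold change threshold of the study, above 2 or below 0.5, ALDH6A1 alone of the 9 was called, and it was lower. In all tested genes 3.79% were called lower and 1.73% higher by that rule, 5.51% in all. In CPM the 3 OE samples lay below the 3 NC samples without overlap in 5 of the 9 genes, against 27.1% of all tested genes. No overlap in either direction was found in 55.3% of all tested genes. The groups overlapped in IVD, MCCC1, MCCC2 and AUH.

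**Figure D1:**
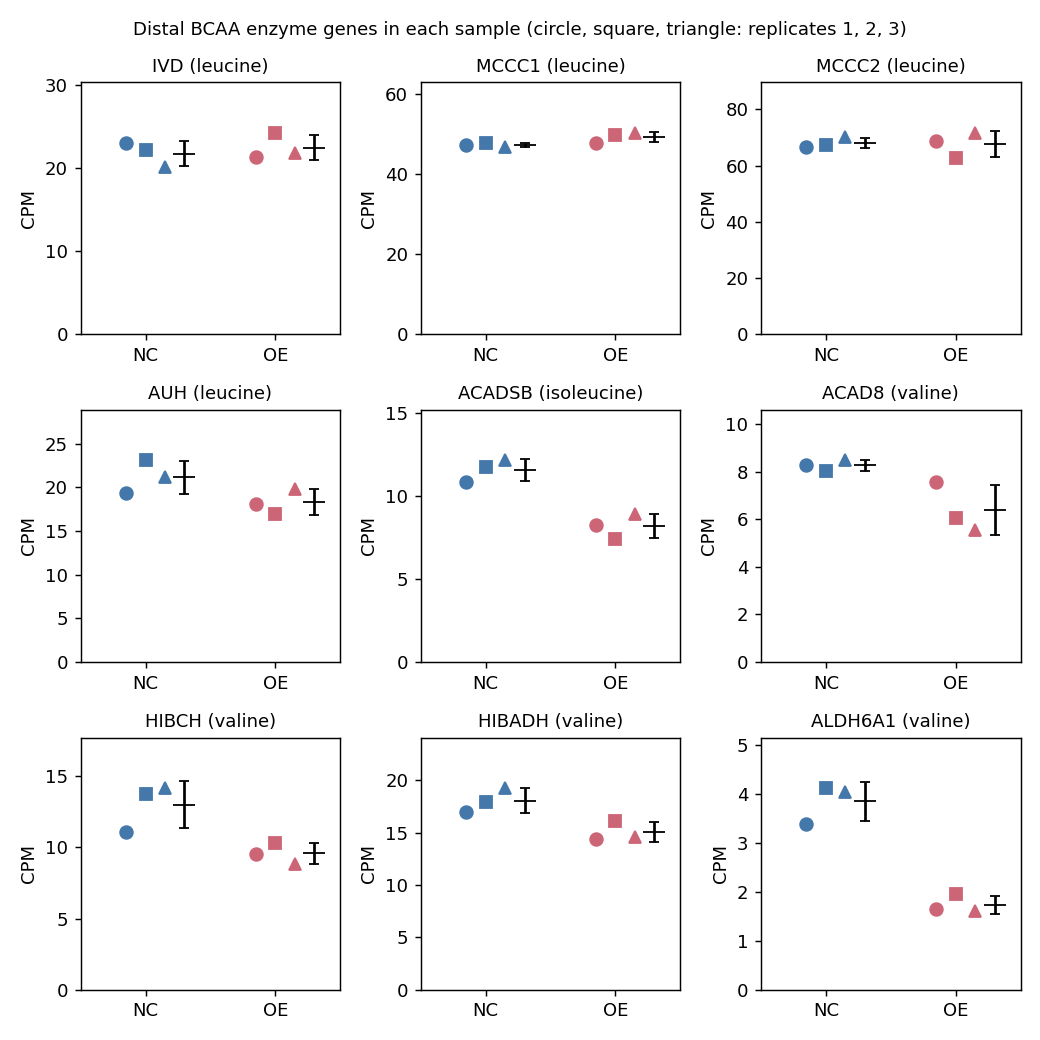
Expression of the 9 genes in CPM (vertical axes, each starting at 0) in the 3 NC and 3 OE samples, with the amino acid route in brackets. Symbols are single samples, and the bar beside them gives the mean and SD (n = 3). In ALDH6A1 the OE samples lie between 1.60 and 1.95 CPM and the NC samples between 3.39 and 4.12 CPM, while in IVD, MCCC1 and MCCC2 the groups overlap.

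The leucine route begins with IVD, isovaleryl-CoA dehydrogenase, the flavoprotein that oxidises isovaleryl-CoA. IVD (ENSG00000128928.10) lies on chromosome 15 (plus strand, bases 40405485 to 40435947 on GRCh38, from GENCODE 44 as for the other genes). Its CPM was 23.0, 22.1 and 20.1 for NC replicates 1 to 3, and 21.4, 24.2 and 21.8 for OE in the same order, which is kept below. The ranges of the groups overlapped, with the highest sample in OE and the lowest in NC. On the log2 scale OE differed from NC by 0.05 (95% interval −0.12 to 0.21, adjusted p = 0.649 from edgeR).

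MCCC1 and MCCC2 encode the alpha and beta subunits of methylcrotonyl-CoA carboxylase, a biotin enzyme, with the biotin carried by the alpha subunit. MCCC1 (ENSG00000078070.13) lies on chromosome 3 (minus strand, bases 183015218 to 183116075). It had 47.4, 47.9 and 46.8 CPM in NC and 47.9, 49.8 and 50.4 CPM in OE. MCCC2 (ENSG00000131844.17) lies on chromosome 5 (plus strand, bases 71579531 to 71658706). It had 66.6, 67.3 and 70.2 CPM in NC and 68.9, 62.6 and 71.6 CPM in OE. Both genes were the best counted of the 9, with 1649 to 2604 counts per sample. The log2 fold change was 0.06 (95% interval −0.06 to 0.17, adjusted p = 0.397 from edgeR) for MCCC1 and −0.01 (95% interval −0.13 to 0.11, adjusted p = 0.929) for MCCC2. At this depth a change of either subunit beyond 0.17 in either direction lies outside both intervals.

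AUH encodes methylglutaconyl-CoA hydratase, which acts after the carboxylase and also binds AU-rich RNA. AUH (ENSG00000148090.12) lies on chromosome 9 (minus strand, bases 91213815 to 91361918). Its CPM was 19.3, 23.1 and 21.2 in NC and 18.2, 17.0 and 19.9 in OE. OE replicate 3 lay above NC replicate 1. OE differed from NC by −0.21 on the log2 scale (SE 0.08, adjusted p = 0.0457 from edgeR), which stands just inside the threshold. The call was lost in DESeq2 (adjusted p = 0.0891). It was also lost without NC replicate 2 (adjusted p = 0.218, log2 fold change −0.14), without NC replicate 3 (adjusted p = 0.0973) and without OE replicate 1 or 2 (adjusted p = 0.108 and 0.187, all from edgeR).

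In the isoleucine route ACADSB, the dehydrogenase of short branched acyl-CoAs, oxidises 2-methylbutyryl-CoA. ACADSB (ENSG00000196177.13) lies on chromosome 10 (plus strand, bases 123008979 to 123058290). Its CPM was 10.9, 11.7 and 12.1 in NC and 8.23, 7.43 and 8.91 in OE. Every OE sample was below every NC sample. Its level fell by 29.3% in OE (log2 −0.50 ± 0.10 SE, adjusted p = 0.000261 from edgeR). It passed the test whichever of the 6 samples was dropped, at −0.57 to −0.43.

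The valine route begins with ACAD8, isobutyryl-CoA dehydrogenase. ACAD8 (ENSG00000151498.12) lies on chromosome 11 (plus strand, bases 134253548 to 134265855). Its CPM was 8.30, 8.03 and 8.48 in NC and 7.58, 6.04 and 5.56 in OE. The SD was 2.71% of the mean in NC and 16.5% in OE, where OE replicate 1 lay closest to NC. Counting error alone gives 5.85% in NC and 6.45% in OE, so the NC samples lay closer together than counting error gives. OE differed from NC by −0.37 on the log2 scale (SE 0.12, adjusted p = 0.0132 from edgeR). Without OE replicate 2 or 3 the adjusted p was 0.0517 and 0.0568, just past the threshold, with the log2 fold change at −0.33 and −0.29.

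HIBCH, the hydrolase that frees 3-hydroxyisobutyrate from coenzyme A, is specific to the valine skeleton. HIBCH (ENSG00000198130.16) lies on chromosome 2 (minus strand, bases 190189735 to 190344193). Its CPM was 11.1, 13.7 and 14.2 in NC and 9.55, 10.3 and 8.83 in OE. NC replicate 1 was the lowest of its group and still above the 3 OE samples. HIBCH fell by 26.3% in OE (log2 −0.44 ± 0.10 SE, adjusted p = 0.00126 from edgeR), and passed the test whichever of the 6 samples was dropped, at −0.54 to −0.37.

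HIBADH oxidises the freed 3-hydroxyisobutyrate to methylmalonate semialdehyde. HIBADH (ENSG00000106049.9) lies on chromosome 7 (minus strand, bases 27525442 to 27662883). Its CPM was 16.9, 18.0 and 19.3 in NC and 14.4, 16.1 and 14.6 in OE. The groups did not overlap, though OE replicate 2 lay close under NC replicate 1. OE differed from NC by −0.26 on the log2 scale (SE 0.08, adjusted p = 0.0120 from edgeR). Without NC replicate 3 the adjusted p was 0.0780, and without OE replicate 1 it was 0.0503.

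ALDH6A1, methylmalonate semialdehyde dehydrogenase, closes the valine route and yields propionyl-CoA. The gene (ENSG00000119711.13) lies on chromosome 14 (minus strand, bases 74056847 to 74084492). It was counted 118, 145 and 145 times in NC and 61, 77 and 58 times in OE. In CPM this was 3.39, 4.12 and 4.03 in NC and 1.65, 1.95 and 1.60 in OE. The highest OE sample stood well below the lowest NC sample. Of the 9 genes it had the lowest counts and the largest change, log2 −1.15 ± 0.17 SE (95% interval −1.50 to −0.80, adjusted p = 8.1e-06 from edgeR). The SD was 10.3% of the mean in NC and 10.9% in OE, where counting error alone gives 8.57% and 12.4%, so the replicates differed by about as much as counting allows. Whichever of the 6 samples was dropped, the value lay between −1.24 and −1.09 and passed both thresholds. The interval reaches above −1, so a fold change of less than 2 is not excluded by it.

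On log2(FPKM + 0.1), where FPKM is the deposited value scaled to gene length and sequencing depth, the exact two-sided permutation test over samples gave p = 0.1 for ACADSB, ACAD8, HIBCH, HIBADH and ALDH6A1. This is the smallest p that 3 samples against 3 allow. It gave 0.2 for AUH and MCCC1, 0.5 for IVD and 0.9 for MCCC2.

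**Figure D2:**
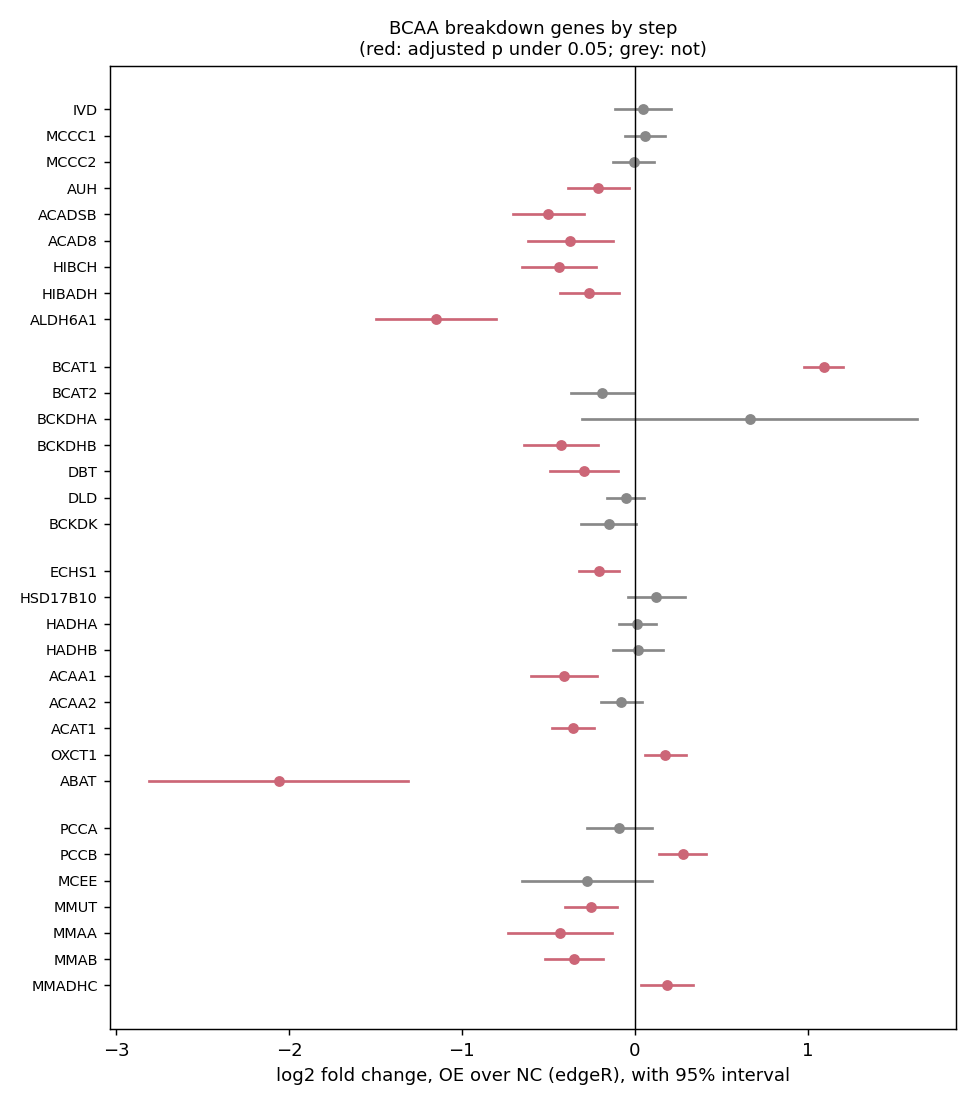
Log2 fold change of OE over NC from edgeR (horizontal axis, points) with its 95% interval (lines) for the 9 genes, at the top, and for the genes of the shared first steps, the shared later steps and the propionyl-CoA steps beneath. Genes with an adjusted p under 0.05 are red and the others grey, and PPM1K, at 6.39, and 1 gene of the shared later steps are not shown. ALDH6A1 at −1.15 is the lowest of the 9, and ABAT at −2.06 is the lowest of those plotted.

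Annotated neighbours overlap 4 of the 9 genes, and whether the authors' counting used strand is not stated, although the libraries were stranded. All the overlapping genes lie on the opposite strand. BBOF1 shares 670 bases with exons of the main ALDH6A1 transcript, 12.3% of its length. BBOF1, a ciliary basal body gene, had 654, 646 and 662 counts in NC and 541, 589 and 503 in OE, several times those of ALDH6A1, and its own log2 fold change was −0.36 (adjusted p = 0.000646 from edgeR). Its part in the counts of ALDH6A1 was not tested. INPP1 shares 202 bases with other annotated exons of HIBCH and none with its main transcript, and had a log2 change of 0.20 (adjusted p = 0.0571 from edgeR). C2orf88 also overlaps HIBCH but shares no exon bases with it. MCCC1-AS1, on the other strand of MCCC1, had at most 2 counts in any sample. An lncRNA gene, not analysed here, lies within the span of HIBADH and shares no exon bases with it.

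The deposited FPKM placed MCCC1 at the top of the 9 genes, with 10.1 ± 0.111 (SD, n = 3) in NC and 10.7 ± 0.436 in OE. AUH followed with 8.63 ± 0.665 in NC and 7.58 ± 0.666 in OE, and HIBADH with 7.53 ± 0.466 and 6.37 ± 0.420. MCCC2 had 3.02 ± 0.0889 in NC and 3.05 ± 0.225 in OE, and IVD 2.92 ± 0.206 and 3.06 ± 0.225. These 2 genes did not differ beyond their spread in either group. ACADSB had 1.71 ± 0.0900 in NC and 1.23 ± 0.115 in OE, and HIBCH 1.65 ± 0.200 and 1.23 ± 0.0917, again within the spread of each other. ACAD8 had 1.07 ± 0.0379 in NC and 0.837 ± 0.127 in OE. ALDH6A1 was the lowest, with 0.530 ± 0.0520 in NC and 0.243 ± 0.0231 in OE, all in FPKM. AUH and HIBADH overlapped in NC and not in OE.

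The FPKM of a gene depends on the length by which it is divided, and that length could be read back from the 2 tables. Counts divided by FPKM gave 22257 bases for MCCC2 and 4620 for MCCC1. Over the 9 genes this length was 1.07 times that of all annotated exons of the gene joined together, and over 11193 well-counted genes the median was also 1.07. MCCC2 has 43 annotated transcripts whose joined exons span 20778 bases, while its MANE Select transcript, the 1 reference transcript chosen per gene, has 3624 bases in 17 exons. MCCC1 has 14 transcripts, 4311 bases of joined exons and a MANE Select transcript of 2454 bases. The division by joined exons therefore lowered MCCC2 far more than MCCC1. In FPKM MCCC1 stood at 3.35 ± 0.124 times MCCC2 in NC and at 3.52 ± 0.269 times in OE. In CPM per kilobase of the MANE Select transcript, a scale chosen after the data had been seen, the ratio of these subunits was 1.03 ± 0.0388 in NC and 1.08 ± 0.0816 in OE (SD, n = 3). The ratio did not differ between the groups beyond its spread on either scale.

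On the MANE Select scale the order in NC was MCCC1 and MCCC2, at 19.3 ± 0.231 and 18.8 ± 0.532 CPM per kilobase, then AUH at 13.5 (12.3 to 14.7 over the samples) and HIBADH at 9.61 ± 0.618. HIBCH at 5.34 ± 0.687 and IVD at 5.00 ± 0.337 CPM per kilobase overlapped. ACAD8 at 3.80 ± 0.103, ACADSB at 1.98 ± 0.112 and ALDH6A1 at 0.704 ± 0.0727 CPM per kilobase came last. In OE the 2 carboxylase subunits again overlapped, at 20.1 ± 0.530 and 18.7 ± 1.27. IVD, at 5.16 ± 0.357, then stood above HIBCH, at 3.93 ± 0.309 CPM per kilobase, without overlap. ALDH6A1 was at 0.317 ± 0.0345 CPM per kilobase in OE. By the group mean ALDH6A1 was the lowest, and MCCC1 the highest, on both scales and in both groups.

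**Figure D3:**
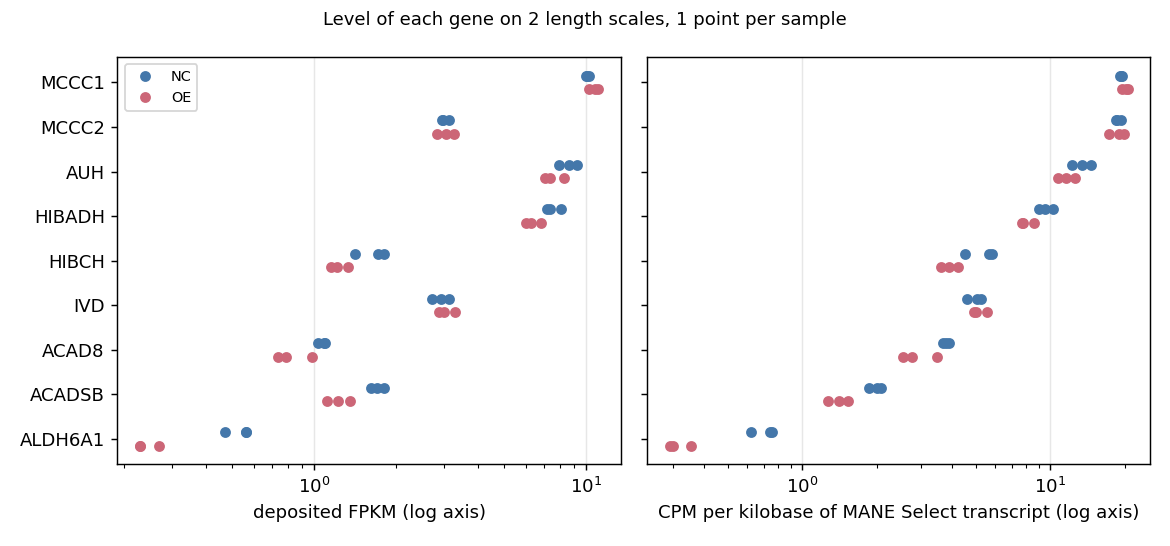
Level of each of the 9 genes in each sample, as deposited FPKM (left) and as CPM per kilobase of the MANE Select transcript (right), both on log axes, with NC in blue and OE in red. MCCC2 lies near 3 FPKM in the left panel, and in the right panel it lies beside MCCC1 at 17.3 to 19.8 CPM per kilobase.

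The other genes of BCAA breakdown were read from the same fit. At the shared first steps, 8 genes were tested, of which 2 fell and 2 rose by the test used above. Over all tested genes 23.7% fell and 24.9% rose, so the count that fell is near that share. The count that rose includes PPM1K, whose rise was set by the transfection, and is not read against the share. The higher ones were PPM1K itself and BCAT1, the cytosolic transaminase, with a log2 change of 1.09 (adjusted p = 1.4e-12 from edgeR). The lower ones were BCKDHB (−0.43, adjusted p = 0.00181), the beta subunit of the E1 component of the dehydrogenase, and DBT (−0.29, adjusted p = 0.0149), its E2 core. BCAT2, the mitochondrial transaminase, had −0.19 (adjusted p = 0.0864) and BCKDK −0.15 (adjusted p = 0.107). BCKDHA, the alpha subunit of E1, was poorly counted, with 10, 9 and 4 counts in NC and 10, 12 and 17 in OE. Its log2 change was 0.66 (adjusted p = 0.251 from edgeR). With upper quartile scaling, which moved the median of all tested genes to −0.041, 4 of the 8 fell.

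Among 10 shared later steps, 4 genes were lower and 2 higher by edgeR, against 23.7% and 24.9% of all tested genes. ACAT1, the thiolase that ends the isoleucine route, fell by 0.36 on the log2 scale (adjusted p = 3.0e-05). ABAT, a transaminase of GABA that also takes a valine intermediate, had a log2 change of −2.06 (adjusted p = 7.3e-05 from edgeR), from 1.08 ± 0.0484 to 0.259 ± 0.132 CPM (SD, n = 3), and was also past the fold change threshold. It rested on few counts, 37, 37 and 41 in NC and 15, 6 and 8 in OE. With at least 10 counts required in every sample ABAT was not tested, and 3 genes of this list were lower. ACAA1, a peroxisomal thiolase, had −0.41 and ECHS1, the enoyl-CoA hydratase used by the valine and isoleucine routes, −0.21. OXCT1, which uses ketone bodies and is named with its values already known, had 0.18 (adjusted p = 0.0140 from edgeR). The count of 2 higher genes fell to 0 without NC replicate 3 and to 1 without NC replicate 2, without OE replicate 2 and in DESeq2.

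Propionyl-CoA from valine and isoleucine is carried on to succinyl-CoA by a carboxylase, an epimerase and a B12-dependent mutase. Of 7 genes of these steps 3 were lower and 2 higher by edgeR, against 23.7% and 24.9% of all tested genes. MMUT, the mutase, had a log2 change of −0.25 (adjusted p = 0.00673), MMAB, which makes its cofactor, −0.35 (adjusted p = 0.00102) and MMAA, which guards it, −0.43 (adjusted p = 0.0172). The count of 3 lower genes became 2 without NC replicate 2, without OE replicate 2 and in DESeq2. PCCB, the beta subunit of propionyl-CoA carboxylase, had 0.28 (adjusted p = 0.00134), while its alpha subunit PCCA had −0.09 (adjusted p = 0.429). The second higher gene was MMADHC, named for its count, with 0.18 (adjusted p = 0.0392 from edgeR), and the count of 2 became 1 without NC replicate 1 or 2, without OE replicate 1 or 2 and in DESeq2.

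IVD, ACADSB and ACAD8 belong to the acyl-CoA dehydrogenase family and pass electrons to the electron transfer flavoprotein. Of 7 other tested members of the family 3 were lower and 1 higher by edgeR, against 23.7% and 24.9% of all tested genes. ACAD11 had a log2 change of 0.67 (adjusted p = 6.8e-06), GCDH, of lysine breakdown, −0.44 (adjusted p = 0.00158), ACAD9 −0.25 and ACADVL −0.15. The count of 3 became 2 without NC replicate 1 and without NC replicate 3. Of the 3 genes of the electron transfer chain ETFDH, with −0.31 (adjusted p = 0.0224), was the 1 that was lower. Its call was lost without NC replicate 3, without OE replicate 2 and in DESeq2. Of 6 genes of biotin supply and other biotin carboxylases none was lower at an adjusted p under 0.05, or at an unadjusted p under 0.05, though 1 was lower with upper quartile scaling and without OE replicate 3. SLC5A6, a transporter of biotin, was higher with 0.34 (adjusted p = 0.0140 from edgeR). That call was lost without NC replicate 1 and without OE replicate 1.

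ALDH6A1 was compared with 7 other aldehyde dehydrogenases of the mitochondrion. Of these 4 were lower and 1 higher by edgeR, with 1 past the fold change threshold in each direction. Over all tested genes 23.7% were lower and 24.9% higher, and 3.79% and 1.73% were also past that threshold. ALDH4A1, of proline breakdown, had a log2 change of −1.12 (adjusted p = 3.3e-08), close to that of ALDH6A1. ALDH1B1 had −0.74, ALDH18A1, of proline synthesis, −0.53, and ALDH1L2, of the folate cycle, 1.37 (adjusted p = 6.2e-11 from edgeR). ALDH5A1, of GABA breakdown, had 0.02.

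Over the 6 samples, the genes whose log2 CPM was most like that of ALDH6A1 were SLC17A3 (Pearson's r = 0.9998), CDH16 (r = 0.998) and MYL12B (r = 0.997). They were the highest of 11770 tested genes averaging 100 counts or more, of which 985 had an r above 0.95. With 2 groups such an r follows mainly from the group difference, and the genes share libraries and scaling. SLC17A3, an organic anion transporter of the proximal tubule, had a log2 change of −1.22, from 5.22 to 2.24 CPM. CDH16, the kidney cadherin, had −0.81, from 7.56 to 4.31 CPM, and MYL12B, a myosin light chain, −0.36.

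The sequence around the start of transcription was taken from RefSeq (GRCh38.p14), 250 bases before to 50 after the start, for 8 of the 9 genes (MCCC1 has 3 starts). HIBADH had no entry. Short motifs were searched on both strands. A gene was counted if any of its promoters held the motif, while the shares given beside are per promoter, over all promoters. Counts and shares are therefore not in the same unit, and whether they differ was not tested. CCAAT was found in 5 of the 8 genes, against 34.6% of 35116 promoters of the same length. GGGCGG was in 7 of the 8, against 45.0%. TATAAA was in none of the 8, against 11.5% of all promoters. The letters TGATGNAA were also in none, against 3.62% of all. CCAAT was in IVD, MCCC1, MCCC2, AUH and ALDH6A1 and not in HIBCH, ACADSB and ACAD8. Of the 5 genes that held it, AUH and ALDH6A1 were lower in OE, and the 3 genes without it were all lower. Among all tested genes 23.7% were lower, and the call of AUH was lost in several fits. Whether the motif goes with the change was not tested. The promoters of ALDH6A1, at chr14:74084404-74084703 on the minus strand, with the largest change and 4 copies, and of IVD, at chr15:40405545-40405844 on the plus strand, with a log2 fold change near 0 and 3 copies, are shown side by side. Capitals mark CCAAT on either strand.
ALDH6A1: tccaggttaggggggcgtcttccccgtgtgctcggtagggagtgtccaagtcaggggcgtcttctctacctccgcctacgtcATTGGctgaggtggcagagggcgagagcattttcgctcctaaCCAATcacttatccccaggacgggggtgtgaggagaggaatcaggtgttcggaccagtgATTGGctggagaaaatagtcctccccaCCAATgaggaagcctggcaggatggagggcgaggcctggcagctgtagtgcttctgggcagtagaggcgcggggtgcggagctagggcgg
IVD: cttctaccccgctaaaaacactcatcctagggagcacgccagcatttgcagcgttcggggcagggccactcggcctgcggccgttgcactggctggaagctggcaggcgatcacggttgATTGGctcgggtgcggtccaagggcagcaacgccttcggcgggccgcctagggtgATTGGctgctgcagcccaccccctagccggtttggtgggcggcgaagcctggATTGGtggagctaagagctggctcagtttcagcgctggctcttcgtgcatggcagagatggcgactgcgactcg

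**Figure D4:**
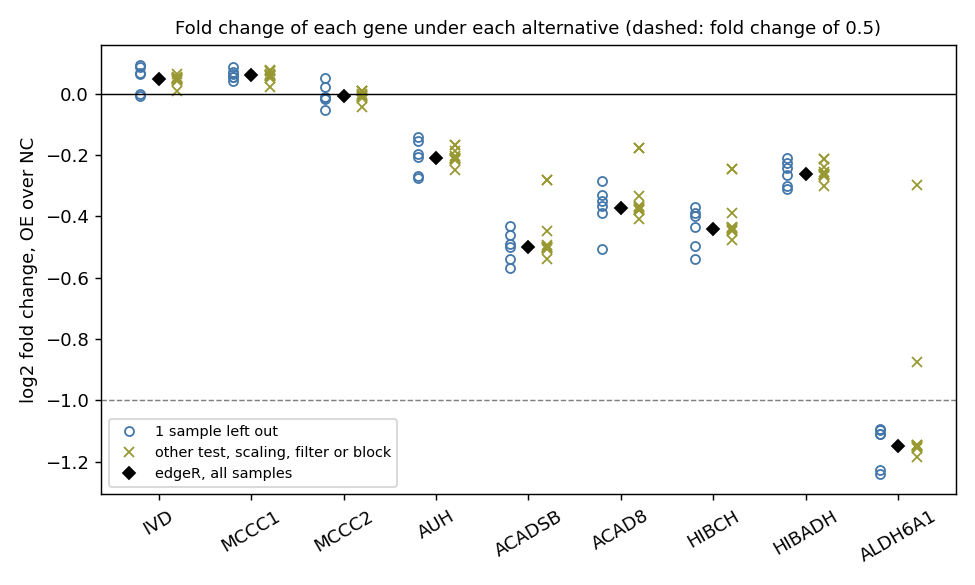
Log2 fold change of OE over NC (vertical axis) of each of the 9 genes in edgeR with all 6 samples (diamonds), with 1 sample left out (circles) and under another test, scaling, filter or block (crosses). The dashed line marks a fold change of 0.5. The 6 genes from AUH to ALDH6A1 stay below 0 throughout, while IVD, MCCC1 and MCCC2 stay within 0.1 of it, and the crosses of ALDH6A1 above the line are limma on FPKM with a pseudocount.

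Across these fits no gene of the 6 changed direction. Leaving out 1 sample gave between 4 and 6 genes lower at an adjusted p under 0.05, with 5 when NC replicate 2 was left out.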

How the data were processed

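RNA-seq of 6 samples of HK-2 cells, 3 NC and 3 OE by the genotype labels, was analysed. The authors trimmed the reads with FASTX-Toolkit, aligned them to GRCh38 with HISAT2 and deposited raw counts of uniquely mapped reads for 31369 genes. FPKM values for 30896 genes, to 2 decimals, were computed by the authors from the same reads. The annotation and counting program are not given in the sources used here.

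The deposited counts were filtered with filterByExpr, scaled by TMM and tested by the quasi-likelihood F-test of edgeR 4.0.16 (R 4.3.3), and p-values of the 15878 tested genes were adjusted by Benjamini-Hochberg. Intervals (95%) and standard errors came from the F statistic. The scripts were tested on simulated data. Alternatives were DESeq2 1.42.0, limma 3.58.1 on FPKM with a pseudocount of 1 or 0.1, other scaling and filters, edgeR's glmTreat at a fold of 1.2, the replicate block and dropping each sample. Gene spans came from GENCODE 44, which holds 31292 of the gene IDs. Replicates were not copies of 1 library (mean chi-square per gene between pairs of 4.83 to 11.0, over genes with at least 10 counts in the pair, where sampling noise gives about 1). The highest values, 11.0 and 9.93, were those of OE replicate 3 with OE replicates 1 and 2. The 9 genes and the lists were chosen with earlier results of these data known. Named beside the 9 were PPM1K, overlapping genes, up to 4 genes of each list with the smallest adjusted p and the 3 most like ALDH6A1, and the other genes named (BCAT2, BCKDK, PCCA, ALDH5A1 and the markers among them) were chosen after their values were seen. Figures were drawn with matplotlib 3.10.9. The values of 1 gene of the shared later steps and 1 marker are not reported here.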

Additional observations from a re-analysis of the deposited data

How the results depend on the processing

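Of the 9 genes, 6 were lower at an adjusted p under 0.05 in edgeR, 2 with limma on log2(FPKM + 1), 2 on log2(FPKM + 0.1), 4 with limma on genes that reached an FPKM of 1 in 3 samples and 2 with edgeR against a fold change of 1.2. Where 2 were lower, they were ACADSB and ALDH6A1. HIBCH lost the call in unfiltered limma on log2(FPKM + 1) (adjusted p = 0.0665) and log2(FPKM + 0.1) (adjusted p = 0.0547). It also lost the call in edgeR against a fold change of 1.2 (adjusted p = 0.059). ALDH6A1 passed the fold change threshold in edgeR, so 1 was called. In the 3 limma fits 0 were called, with ALDH6A1 at −0.30 and −0.87 with pseudocounts of 1 and 0.1 and under the filter in the last. A pseudocount pulls the change of a gene of low FPKM towards 0. ALDH6A1 had a mean FPKM of 0.530 in NC and 0.243 in OE. With a pseudocount of 1 even its full loss would not have reached the threshold, so that fit cannot decide the call. The limma fits changed the test, the values and the genes tested together. Over all tested genes 3766 of 15878 were lower in edgeR, against 2499 and 2504 of 30896 in limma on log2(FPKM + 1) and log2(FPKM + 0.1), and 2466 of 10766 on the filtered genes. Against a fold change of 1.2, 1881 were lower and 1694 higher, where edgeR against no change gave 3949 higher. The sign of IVD and MCCC2, which lie near 0, was not fixed. IVD was −0.0019 without NC replicate 3 and −0.0087 without OE replicate 2, in a range from −0.0087 to 0.093 with each sample left out. MCCC2 was 0.0083 in both limma fits on log2(FPKM + 1), 0.010 on log2(FPKM + 0.1), 0.021 without NC replicate 3 and 0.049 without OE replicate 2, in a range from −0.052 to 0.049. For the changes of sign and of the numbers of lower genes the cause was not tested. NC and OE samples of the same number were not paired by their deviations from the group means (correlations of −0.0032, −0.066 and −0.054 for replicates 1, 2 and 3). With the replicate block 5 of the 9 genes were lower, the difference being AUH (log2 fold change −0.21, adjusted p = 0.0676). The block also took 1 call each from the higher genes of the shared later and propionyl-CoA steps and from the lower genes among the other acyl-CoA dehydrogenases. Of 143 log2 fold changes of the 9 genes with another setting, 112 kept their direction and side of the threshold, 24 lost the call and 7 changed sign. Without a filter on low counts the median of all genes moved to −0.13. ALDH6A1 has the fewest counts of the 9, 58 to 145 per sample.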
